A study of Mus musculus with 19 samples.

Results

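The 7 genes that mark B cells and the follicles in which B cells gather were followed through mouse mammary glands and mammary tumors. They were Ms4a1, Cd79a, Cd79b, Pax5, Fcer2a, Cr2 and Jchain, chosen by name as the rows of the deposited table whose Ensembl identifiers carry these symbols, and they made up 7 of its 46078 genes. Bulk RNA sequencing covered 19 libraries, namely 4 tumors each of the N and NP genotypes (TN and TNP), 4 mammary glands each of the same genotypes (MGN and MGNP) and 3 glands of wild-type mice (MGWT). The N and NP glands came from tumor-bearing mice and had no malignant lesion, and the MGWT glands came from age-matched mice. All TN tumors and MGN replicate 1 were MMTV-neu;Fsp-Cre, MGN replicates 2, 3 and 4 were MMTV-neu;p53wm-R172H/+ without Cre, and all MGNP and TNP samples were MMTV-neu;p53wm-R172H/+;Fsp-Cre. In this model the MMTV promoter drives the neu oncogene in mammary epithelium and the Fsp (S100a4) promoter drives Cre, which turns the conditional p53 allele to the R172H mutant in fibroblasts. The background was a mix of FVB, C57 and BALB/c, and the library names of TNP replicates 1 and 2 share a number, with no source saying whether it stands for an animal.

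B cells recognise antigen through a membrane immunoglobulin that signals through the CD79A and CD79B chains. Mature naive B cells settle in follicles of lymph nodes around a mesh of follicular dendritic cells, which display antigen on complement receptors, and those that differentiate become plasma cells, which lose the B cell program and secrete antibody. The mouse mammary fat pad holds lymph nodes beside the ducts and also scattered lymphocytes and IgA plasma cells, so a piece of gland can contain B cell RNA of several kinds. A tumor grown from epithelium brings no follicle with it unless lymphoid tissue is attached or forms inside it.

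Normalized count here means reads counted on a gene divided by the authors' size factor for the library. On this scale the MGWT glands stood apart in fat markers, with a summed level of 9 white adipocyte genes of 4003 to 5441 against 148200 to 411000 in the 8 N and NP glands and 1594 to 9156 in the 8 tumors. Skeletal muscle RNA was also uneven, since 8 muscle genes took up 1.31%, 6.43%, 0.043% and 3.28% of the reads in MGNP replicates 1 to 4. In MGN they took up 0.00124% to 0.045%. Depth was 20899152 to 27262440 reads on genes in the N and NP libraries and 54677315 to 62645459 in MGWT.

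The members lie on separate chromosomes of GRCm38. Cd79a (ENSMUSG00000003379) is at chr7:24897381-24902197 on the plus strand, and the others are on minus strands, with Cd79b (ENSMUSG00000040592) at chr11:106311341-106314762, Cr2 (ENSMUSG00000026616) at chr1:195136811-195176716, Fcer2a (ENSMUSG00000005540) at chr8:3681737-3694175, Jchain (ENSMUSG00000067149) at chr5:88519809-88527891, Ms4a1 (ENSMUSG00000024673) at chr19:11249675-11266241 and Pax5 (ENSMUSG00000014030) at chr4:44524757-44710487. The antisense gene 4930526L06Rik overlaps Ms4a1, and Gm12462, 4930517J16Rik and 5730488B01Rik overlap Pax5 on the other strand. Whether counting used strand is not stated, so reads of these 2 members and of their antisense partners cannot be told apart.

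Since most members followed each other across libraries, their promoters were searched for letters of B cell regulators. The RefSeq table for GRCm38.p6 gave 7 start sites for 5 of the 7 members (Cd79a, Cr2, Fcer2a, Pax5 and Jchain). The letters, read on both strands of the 250 bases before a start, were the octamer ATGCAAAT, the EBF1 core CCCNNGGG, the PU.1 core GAGGAA and the E-box CAGGTG. Cd79a, which tracked Ms4a1 closely in the data below, and Cr2, which did not, are shown 5′ to 3′ with the matching letters in capitals.
Cd79a promoter, chr7:24897247-24897496, plus strand: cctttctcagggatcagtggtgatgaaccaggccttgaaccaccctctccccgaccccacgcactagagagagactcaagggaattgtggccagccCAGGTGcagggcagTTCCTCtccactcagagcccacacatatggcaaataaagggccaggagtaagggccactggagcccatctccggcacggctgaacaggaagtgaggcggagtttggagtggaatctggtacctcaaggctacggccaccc
Cr2 promoter, chr1:195176720-195176969, minus strand: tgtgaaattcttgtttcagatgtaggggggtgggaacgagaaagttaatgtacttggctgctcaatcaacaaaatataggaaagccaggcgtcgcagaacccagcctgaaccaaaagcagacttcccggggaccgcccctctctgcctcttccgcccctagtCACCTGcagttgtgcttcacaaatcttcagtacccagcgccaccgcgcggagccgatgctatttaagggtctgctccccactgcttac
The Cd79a window held an E-box beginning 154 bases before the start and, on the other strand, a PU.1 core beginning 140 bases before it. The Cr2 window held an E-box on the other strand, 88 bases before the start. A second Fcer2a start had E-boxes 244 and 99 bases before it, and the other Fcer2a starts, Pax5 and Jchain held none of the searched letters. Among the 32851 promoters in the table the octamer was in 1.6%, the EBF1 core in 11.8%, the E-box in 17.2% and the PU.1 core in 23.3%, so these matches describe the letters and no more.

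Ms4a1 encodes CD20, a surface protein of B cells from the pre-B stage until plasma cell differentiation. Its normalized count was 191.5, 443.7 and 441.3 in MGWT replicates 1 to 3. In replicates 1 to 4 it was 1494, 39.1, 358 and 1806 in MGN and 2661, 88.5, 3227 and 1027 in MGNP. Tumors gave 19.3, 16.9, 166 and 14.0 in TN and 6.73, 62.2, 28.6 and 19.98 in TNP. The MGWT glands lay within 2.32-fold of each other, whereas the highest MGN gland was 46.2-fold and the highest MGNP gland 36.5-fold above the lowest of its group. MGN replicate 2 and MGNP replicate 2 fell within the range of the tumors, and TN replicate 3 stood above the other 7 tumors. In bulk tissue, fewer B cells and less RNA per B cell cannot be told apart.

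**Figure D1:**
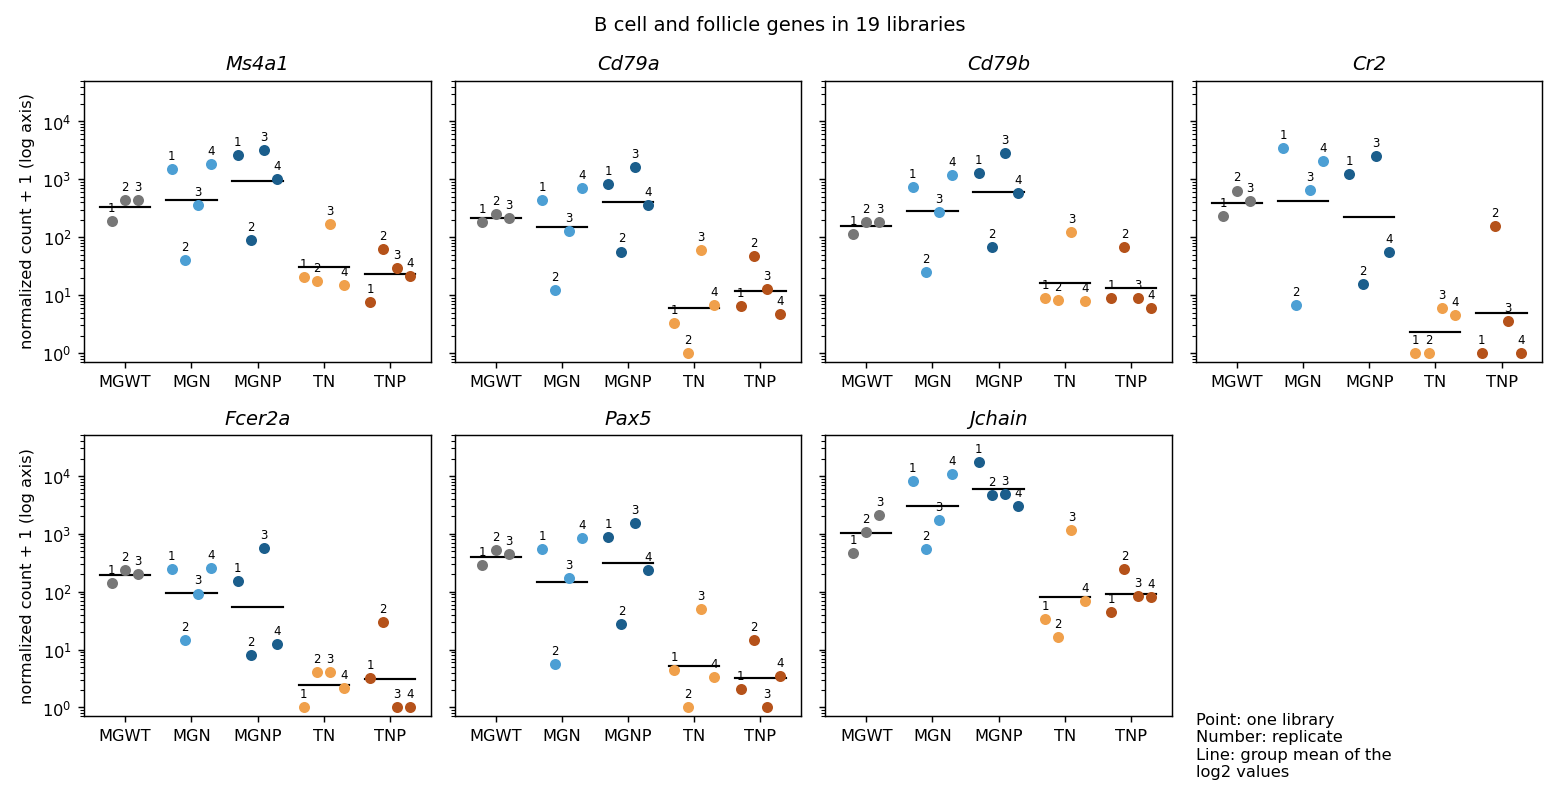
Normalized count + 1 of the 7 members on a log axis, with a point for each of the 19 libraries, its replicate number above it and a line at the mean of the log2 values of the group. Replicate 2 of MGN and MGNP sits far below the other glands of its group for Ms4a1, at 39.1 and 88.5, and TN replicate 3 and TNP replicate 2 sit above most tumors.

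Cd79a and Cd79b, the signalling pair of the B cell receptor, followed a similar order of libraries. Cd79a was 180, 255 and 213 in MGWT, 439, 11.5, 130 and 706.5 in MGN, and 830, 55.7, 1642 and 363 in MGNP. In tumors it was 2.27, 0, 58.6 and 5.84 in TN and 5.61, 46.4, 11.7 and 3.75 in TNP. The pair gave the same low glands and the same high tumors as Ms4a1. Cd79b was 114.7, 182.6 and 180.8 in MGWT, 729, 24.1, 272 and 1210 in MGN, and 1264, 67.1, 2842 and 581 in MGNP. Its tumor counts were 7.95, 7.38, 122 and 7.003 in TN and 7.85, 67.1, 7.79 and 4.99 in TNP. TN replicate 3 and TNP replicate 2 were thus the only tumors above 10 for Cd79b.

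Pax5, the transcription factor that holds B cells to their identity and is switched off in plasma cells, was 284, 519 and 449.5 in MGWT. It was 545, 4.60, 168 and 842 in MGN and 878, 27.1, 1528 and 235 in MGNP. In TN it was 3.41, 0, 48.5 and 2.33, and in TNP 1.12, 13.4, 0 and 2.50. Per read of Ms4a1 it was highest in the wild-type glands, as the ratios further on show.

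Fcer2a encodes CD23, the low-affinity IgE receptor of mature follicular B cells. It was 142, 238 and 205 in MGWT, 247, 13.8, 92.0 and 255 in MGN, and 149.7, 7.14, 568 and 11.6 in MGNP. In tumors it was 0, 3.16, 3.03 and 1.17 in TN and 2.24, 29.3, 0 and 0 in TNP. MGNP replicate 4, which ranked 5 of the 19 libraries for Ms4a1, ranked 11 for Fcer2a.

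Cr2 encodes CD21, the complement receptor of mature B cells and follicular dendritic cells. Its normalized count was 229, 641 and 423 in MGWT, 3438, 5.75, 645 and 2072 in MGN, and 1254, 14.3, 2510 and 54.2 in MGNP. In tumors it was 0, 0, 5.05 and 3.50 in TN and 0, 154, 2.60 and 0 in TNP. Cr2 had the widest range of the members within a group, with 598-fold between the MGN glands. In 7 of the 8 tumors it rested on 0 to 5 reads, and TNP replicate 2 alone had 126 reads.

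Jchain encodes the chain that joins IgA and IgM into polymers and is made in quantity by plasma cells. It was 461, 1079 and 2147 in MGWT, 8164, 537, 1737 and 10710 in MGN, and 17490, 4612, 4817 and 3045 in MGNP. In tumors it was 33.0, 15.8, 1156 and 67.7 in TN and 43.7, 248, 81.8 and 78.7 in TNP. MGNP replicate 2, near the bottom of the glands for the other members, ranked 5 of the 19 libraries for Jchain. TN replicate 3 exceeded MGN replicate 2 and MGWT replicates 1 and 2.

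Per kilobase of exon, the order of the members by median level was Jchain 429, Cd79a 146, Cd79b 126, Ms4a1 71.3, Fcer2a 66.2, Cr2 52.1 and Pax5 50.8 normalized counts in MGWT. In the 8 N and NP glands it was Jchain 1873, Cd79b 458, Cd79a 275, Ms4a1 204, Cr2 117, Pax5 44.1 and Fcer2a 39.1. Between groups, the mean log2 level of Ms4a1 ran from MGNP at 9.88 through MGN at 8.79 and MGWT at 8.39 to TN at 4.95 and TNP at 4.55. Neighbours in that order overlapped, MGWT and TN excepted, and the SD of the log2 level was 2.54 in MGN and 2.38 in MGNP against 0.70 in MGWT.

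The tumors were compared with the glands of the N and of the NP group to ask what separates tumor from gland when stromal p53 is wild type or mutant. The alleles matched between TNP and MGNP, but in the N comparison only MGN replicate 1 carried the alleles of the TN tumors. Every member had a lower mean in the tumors in both genotypes. Reads pooled over the 4 libraries of a group and scaled by their size factors were 15.9 times as many in MGN as in TN for Ms4a1 (95% exact Clopper-Pearson interval 13.8 to 18.4, 3342 and 209 reads), 26.9 times for Pax5 and 673 times for Cr2 (341 to 1560, 5403 and 8 reads). Between MGNP and TNP the same ratio was 66.4 for Ms4a1 (54.3 to 82.2), 172 for Pax5 (103 to 316) and 27.4 for Cr2 (23.0 to 33.0). These intervals cover counting error only, and single libraries carried the ratios. Among glands, reads of Ms4a1 in replicates 1 to 4 were 1173, 34, 381 and 1754 in MGN and 2790, 62, 2979 and 795 in MGNP. No gland was left out of the ratios. The omissions that follow took out only the tumor with the most member reads of its group, which raised each ratio given. TN replicate 3 supplied 164 of the 209 TN reads of Ms4a1, and without it the ratio was 54.0 for Ms4a1, 208 for Pax5 and 1310 for Cr2 (448 to 6360, with 3 tumor reads left). TNP replicate 2 supplied 126 of the 128 TNP reads of Cr2, and without it the ratio was 108 for Ms4a1, 603 for Pax5 (206 to 2930, with 3 tumor reads left) and 1320 for Cr2 (364 to 10900, with 2 tumor reads left).

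In TN against MGN, 6 of the 7 members entered the test and all 6 fell, beside 22.3% of 17950 genes called lower and 12.8% called higher. A gene was called at an adjusted p-value under 0.05 in limma and at least a 2-fold change. In the comparisons, a gene that fell or rose is one called lower or higher. The log2 difference was -5.20 for Jchain (SE 1.39, adjusted p = 0.0136), -4.798 for Pax5 (SE 1.69, adjusted p = 0.0406), -4.635 for Cd79a (SE 1.51, adjusted p = 0.0301), -4.08 for Cd79b (SE 1.32, adjusted p = 0.0294) and -3.85 for Ms4a1 (SE 1.26, adjusted p = 0.0311). Fcer2a fell by 5.30 (SE 0.93, adjusted p = 0.00186) and was the only tested member whose groups did not overlap, beside 49.2% of all genes tested. The untested Cr2 did not overlap either, with 5.75 in the lowest gland and 5.05 in the highest tumor. Since no TN tumor had more than 3 reads of Fcer2a, that size depends on the pseudocount of 1, and the pooled ratio was 78.5 (37.9 to 196, 552 and 7 reads). The members passed the filter through the gland group, where they were high, so that the count of 6 is a description. Cr2 missed the filter because MGN replicate 2 was below 10.

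Most of these calls depended on which libraries were included, while the differences stayed large. Without MGN replicate 1, 3 or 4 only Fcer2a and Jchain were called, 2 members in all, and without TN replicate 1, 2 or 4 the calls were these and Cr2, which then entered the test, 3 in all. Without MGN replicate 2 or TN replicate 3, the libraries that lay nearest to the other group, all 7 were called. Over all 8 omissions the log2 difference ran from -5.00 to -3.17 for Ms4a1, -5.83 to -3.77 for Cd79a, -5.24 to -3.38 for Cd79b and -6.36 to -3.95 for Pax5. With edgeR on the recovered reads the adjusted p of Jchain was 0.0531.

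**Figure D2:**
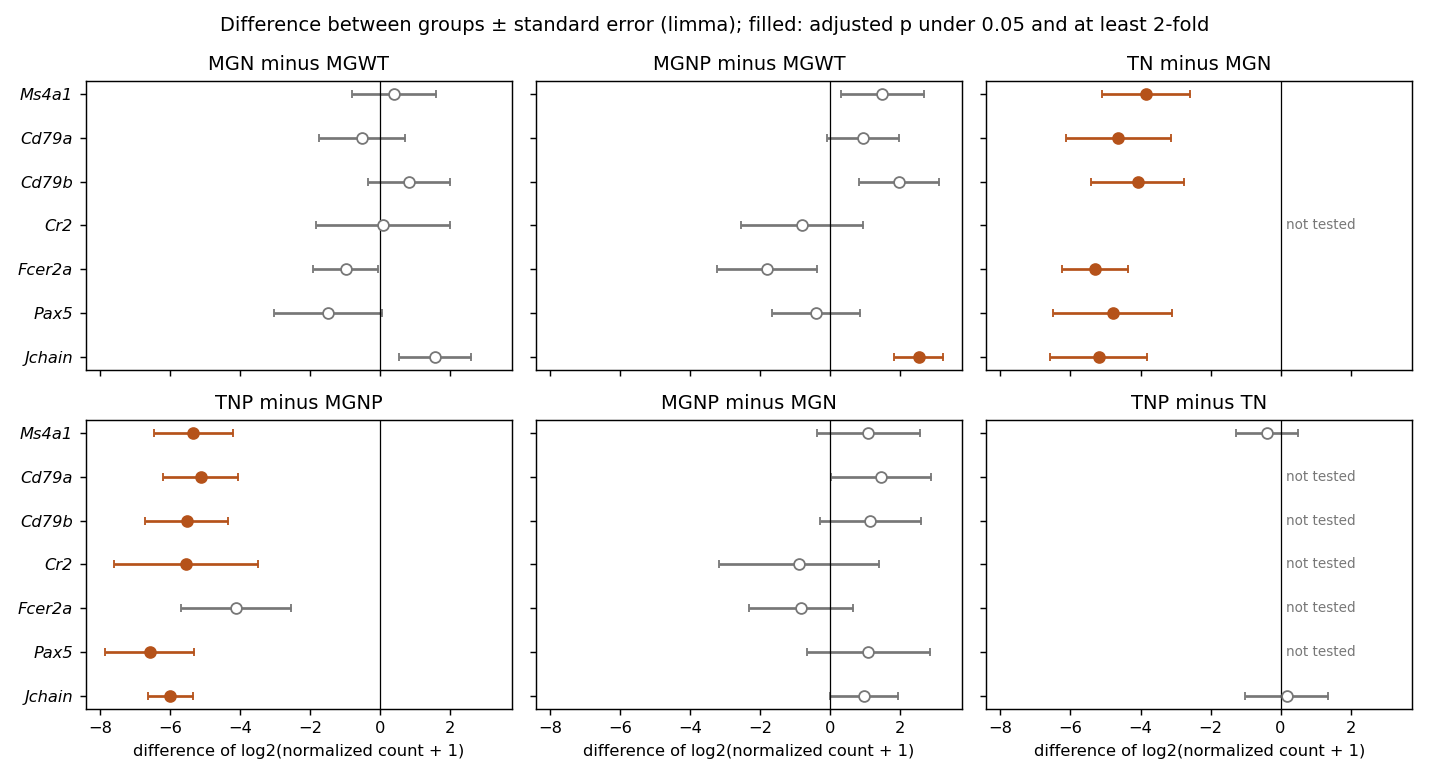
Difference of log2(normalized count + 1) between groups for the 7 members in 6 comparisons, with the standard error as bars. Filled points passed the threshold. The 6 tested members lie left of 0 in TN minus MGN and all 7 in TNP minus MGNP, and the points scatter around 0 in MGNP minus MGN.

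For TNP against MGNP, all 7 members had a negative difference and 6 of 7 were called lower, beside 24% of 17880 genes called lower and 14.7% called higher, 38.7% in all. Here too the members passed the filter mainly through the gland group, where they were high, so that this count is a description. The log2 difference was -6.58 for Pax5 (SE 1.28, adjusted p = 0.00269), -5.99 for Jchain (SE 0.63, adjusted p = 0.000116), -5.55 for Cr2 (SE 2.06, adjusted p = 0.0460), -5.52 for Cd79b (SE 1.18, adjusted p = 0.00427), -5.33 for Ms4a1 (SE 1.13, adjusted p = 0.00409) and -5.13 for Cd79a (SE 1.08, adjusted p = 0.00402). The difference of Fcer2a was -4.11 (SE 1.57, adjusted p = 0.0506). Ms4a1, Cd79a, Pax5 and Jchain did not overlap between the groups, beside 52.6% of all genes. Cr2 lost its call without MGNP replicate 1 or 3 or TNP replicate 1, 3 or 4 (adjusted p 0.0909 to 0.115), and on all samples with a pseudocount of 5 (0.0652), edgeR (0.0727), DESeq2 (0.0730) and the replicate block (0.0891). Fcer2a was called with a pseudocount of 0.5 (0.0455), edgeR (0.0457), DESeq2 (0.0352) and all 5 groups in one fit (0.0117). Both Cr2 and Fcer2a were called without TNP replicate 2, at adjusted p-values of 0.0130 and 0.0230 in limma. With TNP replicates 1 and 2 averaged, 5 members were called. The median difference over the members tested was -4.72 in TN against MGN and -5.52 in TNP against MGNP, where the median of all genes tested was -0.05 and -0.07.

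Other B cell genes were lower in tumors as well. Of 11 tested genes of mature B cell identity, 10 fell in TN and 9 in TNP and none rose, with Cd37, a tetraspanin of B cells, at -4.08 in both, Spib, a transcription factor of B cells and plasmacytoid dendritic cells, at -4.14 and -5.27, and Pou2af1, the coactivator that works with octamer-binding factors, at -4.36 and -5.57. Constant regions of immunoglobulins fell in 10 of 11 genes in TN and 11 of 11 in TNP, among them Igha at -6.38 and -5.68 and Ighm at -4.19 and -5.41. Their medians were -5.63 and -5.75. Genes under 10 normalized counts in tumors pass the filter through the glands. These counts, and those of the tumor comparisons in the next paragraphs, are therefore descriptions too. They stand beside 22.3% of all genes called lower and 12.8% higher in TN, and 24% and 14.7% in TNP.

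Genes of receptor signalling that other leukocytes share were less uniform, with 8 of 16 called lower in each comparison and none called higher. Called or not, 11 of the 16 had a negative difference in TN and 12 in TNP. Syk, the kinase next to the receptor, fell, with differences of -2.43 and -2.79. Plcg2, the phospholipase further down, had differences of 0.86 and 0.67, and Ptpn6, a phosphatase of many blood cells, of 0.11 and -0.05, none of which was called. In the plasma cell list 3 of 9 genes fell and 2 rose in each comparison. Of all genes 22.3% in TN and 24% in TNP were called lower, and 12.8% and 14.7% higher. Irf4, a factor that plasma cells require, was at -5.95 and -6.40, Tnfrsf17, the survival receptor BCMA, at -3.74 and -4.01, and Mzb1, a chaperone for antibody assembly, at -3.997 and -5.41, and these 3 fell in both. The 2 that rose were Xbp1, the secretory pathway factor also used by epithelium, at 1.75 and 2.46, and Derl3, a component of protein disposal in the endoplasmic reticulum, at 2.96 and 2.05.

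Follicle organisers were next. Cxcl13, the chemokine that draws B cells into follicles, fell, at -4.33 in TN and -4.26 in TNP. Its receptor Cxcr5 fell by 5.48 in TNP (adjusted p = 0.0170) and had a difference of -4.28 in TN (adjusted p = 0.0590). Ltbr, the lymphotoxin receptor that stromal and epithelial cells carry, was at 0.81 and 0.93, below 2-fold. In all, 4 of 6 tested organisers fell in TN and 2 of 5 in TNP. Of 4 tested germinal centre genes, Gcsam, a signalling protein of germinal centre B cells, fell, at -3.88 and -4.06, S1pr2, a receptor that confines B cells there and is also found in other tissues, rose by 1.43 and 2.70, and Bcl6 and Mybl1 were not called.

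Markers of T cells and of the T zone and venules of a lymph node were also lower in tumors than in N and NP glands. All 12 T cell genes fell in TN and 10 of 12 in TNP, with medians of -3.80 and -3.50, and their summed normalized count was 1655 to 7166 in MGN, 587 to 9551 in MGNP, 141 to 461.5 in TN and 93.1 to 431 in TNP. Of the T zone and high endothelial venule genes, 6 of 7 fell in TN and 4 of 5 in TNP, among them Ccl21a, the chemokine of T zones and lymphatic vessels, at -8.17 and -6.202. Macrophage genes moved less, with 4 of 10 called lower and 1 called higher in TN, and 3 called lower and 1 called higher in TNP. Their medians were -0.66 and -0.05, where all genes tested had -0.05 and -0.07. The 9 adipocyte genes all fell in both comparisons, with medians of -8.50 and -7.45. How much of the B cell difference goes with lymph node tissue or fat in the pieces of gland was not tested.

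**Figure D3:**
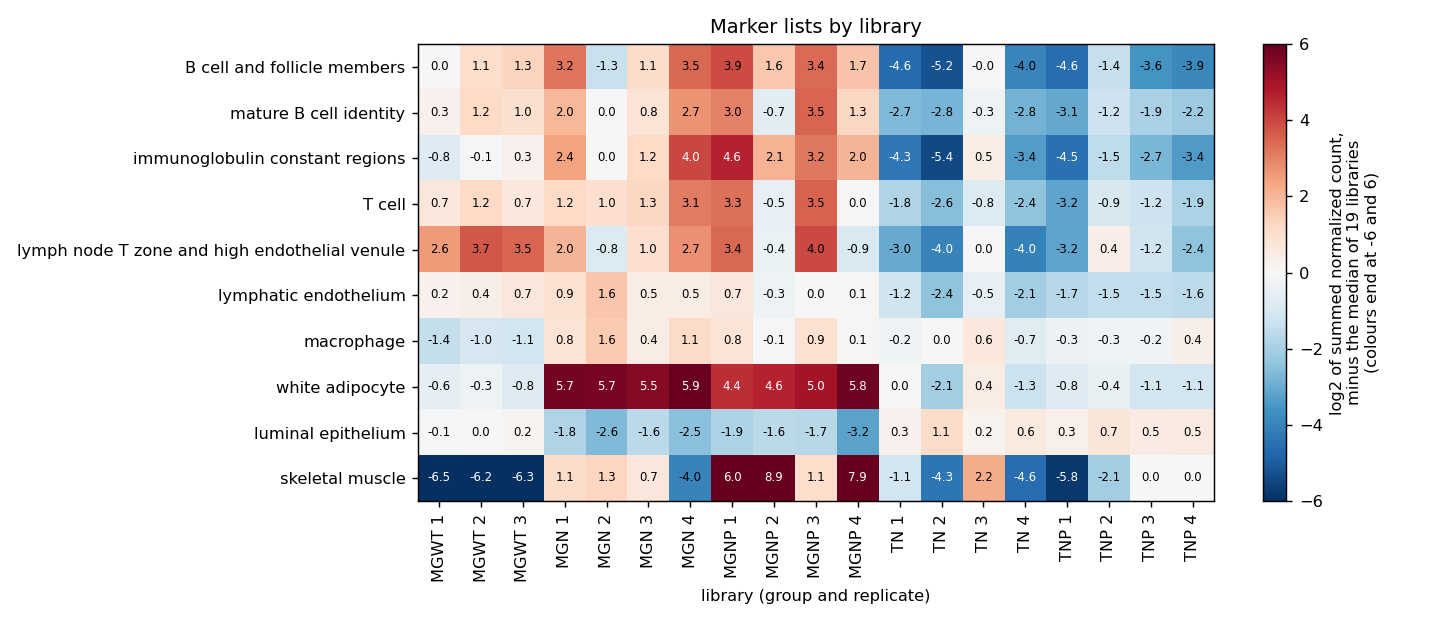
Log2 of the summed normalized count of 10 marker lists in each of 19 libraries, minus the median of the list over all libraries. The B cell members reach 3.9 in MGNP replicate 1 and -5.2 in TN replicate 2, and MGN replicate 2 is at -1.3 for the members but at 1.6 for macrophages and 5.7 for white adipocytes.

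Glands of tumor-bearing mice were compared with wild-type glands next. These 2 comparisons share the MGWT libraries. In MGN against MGWT, limma called 0 of 7 members, as did edgeR and DESeq2, and the unadjusted p-value was under 0.05 for 0 of them, beside 37% of 19017 genes called, 19.1% higher and 17.9% lower. Differences ran from -1.49 for Pax5 (SE 1.53) to 1.56 for Jchain (SE 1.03). The groups overlapped for every member, beside 61.3% of all genes that did not overlap, and the median of 0.08 compares with 0.02 over all genes. The count of 0 depended on MGN replicate 2, the lowest MGN gland for every member. Without it limma called Cd79b (1.99, adjusted p = 0.0128), Cr2 (2.07, adjusted p = 0.0246) and Jchain (2.38, adjusted p = 0.0321) higher. Ms4a1 (1.56, adjusted p = 0.0677), Cd79a (0.68, adjusted p = 0.333), Fcer2a (-0.083, adjusted p = 0.877) and Pax5 (0.074, adjusted p = 0.919) were still not called.

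In MGNP against MGWT limma called only Jchain, at 5.73-fold higher (log2 difference 2.52, SE 0.69, adjusted p = 0.0213), beside 16.4% of 19065 genes called higher and 32.6% called in either direction. All 4 MGNP glands were above the 3 MGWT glands for Jchain, and the groups did not overlap, as for 54.4% of all genes. Without MGWT replicate 1 or 2 its adjusted p was 0.0792 or 0.0623, with all 5 groups in one limma fit 0.0970 and with the replicate block 0.0556. Ms4a1 differed by 1.49 (SE 1.19), Cd79b by 1.97 (SE 1.14), Cd79a by 0.93 (SE 1.03), Pax5 by -0.40 (SE 1.26), Cr2 by -0.80 (SE 1.74) and Fcer2a by -1.82 (SE 1.43), none of them past the threshold in limma. DESeq2 on the recovered reads called Ms4a1 (2.29, adjusted p = 0.0213) and Cd79b (2.90, adjusted p = 0.00326) besides Jchain, and edgeR called only Jchain. Without MGNP replicate 2, Ms4a1, Cd79a and Cd79b were called higher besides Jchain, 4 in all. With neither of the 2 muscle-rich glands, an alternative chosen after the data were seen, 6 members were called higher (Ms4a1 by 3.13, Cd79a by 2.44, Cd79b by 3.60, Cr2 by 2.16, Pax5 by 1.52 and Jchain by 3.17), and Fcer2a was at 0.61. This leaves 2 MGNP glands, replicates 1 and 3, which also had the highest Ms4a1 counts of the series. Replicate 1 still had 1.31% of its reads on the muscle genes.

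Some antibody genes were called higher than in MGWT. The counts below stand beside 16.4% of all genes called higher and 16.2% lower in MGNP, and 19.1% and 17.9% in MGN. In MGNP 5 of 11 constant region genes rose over MGWT and 0 fell, namely Ighm by 3.08, Ighg2b by 4.08, Igha by 2.67, Igkc by 2.96 and Iglc1 by 2.67. In MGN, where Jchain was not called, it was 4 of 11, namely Ighm by 2.07, Ighg1 by 2.87, Ighg2b by 3.99 and Ighg2c by 1.93. The groups did not overlap for 7 of 11 in MGNP and 2 of 11 in MGN, beside 54.4% and 61.3% of all genes. The summed count of the 11 genes in MGN replicate 2 was 7660, within the 4434 to 9204 of MGWT. Plasma cell genes rose in 4 of 9 and fell in 1 in MGNP, with Mzb1 at 2.54, Tnfrsf17 at 2.42, Irf4 at 2.15, Derl3 at 1.92 and Sdc1, the syndecan of plasma cells and epithelium, at -1.44. In MGN 2 rose (Tnfrsf17 and Irf4) and 2 fell (Prdm1 and Sdc1). Mature B cell identity genes had 0 of 11 called in either comparison in limma, with 1 in MGN and 0 in MGNP under 0.05 before adjustment. Receptor signalling genes rose in 5 of 16 in MGN, with Fcgr2b, the inhibitory Fc receptor of B cells and macrophages, at 2.84, Btk at 1.53, Vav1 at 1.46, Prkcb at 1.38 and Syk at 1.30, and in 1 of 16 in MGNP, Fcgr2b at 2.46. Macrophage genes rose in 8 of 10 in MGN and 7 of 10 in MGNP, and luminal and basal epithelial genes fell in MGN in 8 of 8 and 6 of 6.

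T zone genes were read beside the B cell genes. Ccl21a reads per Ms4a1 read were 2.33 to 3.38 in the 3 MGWT glands and 0.138 to 0.669 in MGNP, while MGN ran from 0.205 to 5.12. Of 8 tested T zone and venule genes, 2 fell in MGN (Chst4 and Fut7, enzymes that modify sugar chains in these venules) and 0 were called in MGNP in limma, where 0 were under 0.05 before adjustment. Of all genes 17.9% were called lower in MGN and 16.2% in MGNP. Glycam1, a mucin of venules that mammary epithelium also secretes, was 4217 to 9207 in MGWT, 16.1 to 2227 in MGN and 78.8 to 9162 in MGNP.

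Mutant p53 in fibroblasts was addressed by comparing the genotypes within a tissue. In MGNP against MGN, 0 of 7 members were called by limma, edgeR or DESeq2, with 0 under 0.05 before adjustment, beside 0% of 18563 genes called by limma, 0 by edgeR, and 400 higher and 126 lower by DESeq2. The groups overlapped for all 7, beside 6.21% of all genes that did not overlap. Differences ran from -0.89 for Cr2 (SE 2.29) to 1.45 for Cd79a (SE 1.42), with adjusted p-values from 0.804 to 0.947. The 8 skeletal muscle genes differed by 5.77 to 7.01 in the same comparison, with 8 of 8 under 0.05 before adjustment and 0 called in limma. Without the 2 muscle-rich glands the differences were 2.72 for Ms4a1, 2.96 for Cd79a, 2.76 for Cd79b, 3.005 for Pax5, 2.08 for Cr2, 1.60 for Fcer2a and 1.61 for Jchain, and 0 were called (lowest adjusted p = 0.378 in limma). The part of muscle in these values was not tested. In TNP against TN, 2 members passed the filter, Ms4a1 at -0.40 (SE 0.88) and Jchain at 0.17 (SE 1.19), and 0 were called by limma, edgeR or DESeq2, with 0 under 0.05 before adjustment, beside 0.0421% of 16638 genes called by limma (0.0361% higher and 0.00601% lower), 0 by edgeR, and 52 higher and 34 lower by DESeq2. The groups overlapped for both, beside 4.21% of all genes that did not overlap. The other 5 were under 10 normalized counts in too many tumors. An interaction contrast asked whether the tumor and gland difference differed between genotypes, and 0 of 7 members were called, with adjusted p-values from 0.902 to 0.978 in limma, 0 under 0.05 before adjustment and 0 called by edgeR or DESeq2. Of 19367 genes limma called 0%, edgeR called 0, and DESeq2 called 53 higher and 272 lower. The SE of this contrast on the log2 scale ran from 1.65 for Jchain to 2.95 for Cr2.

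Ratios within a library do not depend on its depth or size factor, and they separated the members into those that kept step with Ms4a1 and those that did not. Over the 11 glands, Cd79b reads per Ms4a1 read ran from 0.41 to 0.881 (2.15-fold) and Cd79a from 0.294 to 0.942 (3.2-fold), while the normalized count of Ms4a1 itself ranged 82.6-fold. Jchain ranged 35-fold (1.49 to 52.1), Cr2 43.6-fold (0.0528 to 2.3) and Fcer2a 65.7-fold (0.0113 to 0.742). Pax5 per Ms4a1 read was 1.02 to 1.48 in the 3 MGWT glands and 0.118 to 0.474 in the 8 N and NP glands, which did not overlap. The lowest of these, in MGN replicate 2, rested on 4 reads of Pax5 and 34 of Ms4a1. Fcer2a did not overlap either, at 0.464 to 0.742 in MGWT, 0.141 to 0.353 in MGN and 0.0113 to 0.176 in MGNP. The share of all genes whose ratio to Ms4a1 would separate in this way was not computed.

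**Figure D4:**
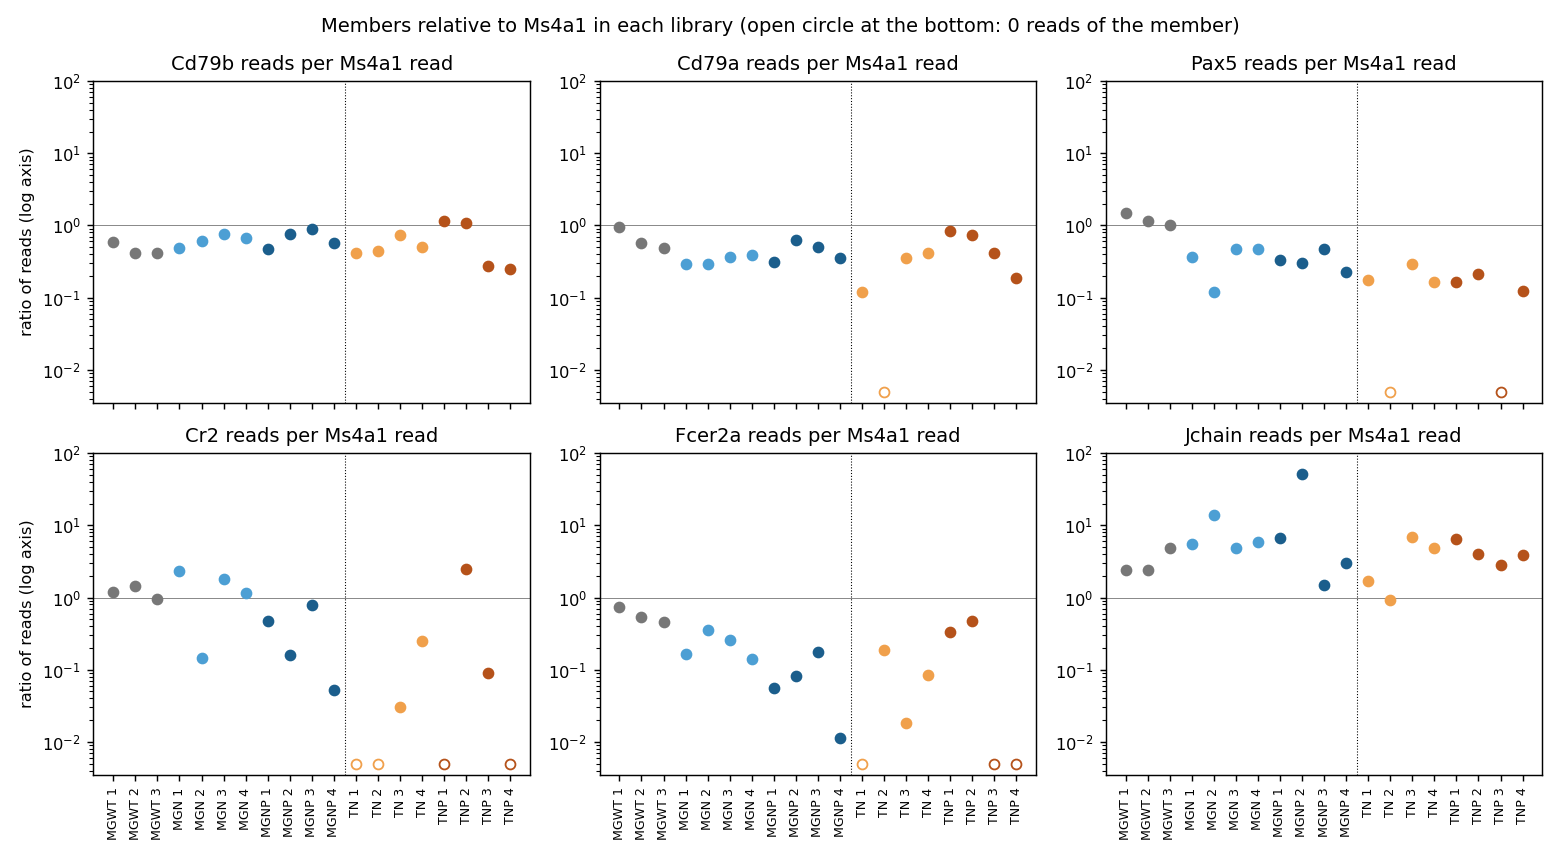
Reads of 6 members per read of Ms4a1 in each of 19 libraries, on a log axis, with open circles where the member had 0 reads and a dotted line between glands and tumors. Cd79b stays between 0.41 and 0.881 in all glands, and Cr2 and Fcer2a reach their lowest gland values, 0.0528 and 0.0113, in MGNP replicate 4.

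Single glands showed different mixtures. MGNP replicate 4 had 795 reads of Ms4a1, 450 of Cd79b and 182 of Pax5 but 42 of Cr2, 9 of Fcer2a and 44 of Ighd, the IgD constant region of naive B cells. Its Ighd per Ms4a1 read of 0.0553 was the lowest of the glands, and it had 110 reads of Ccl21a and 42 of Cd3e. MGNP replicate 3, with 2979 reads of Ms4a1, had 2317 of Cr2, 524 of Fcer2a, 1215 of Ighd, 1620 of Ccl21a and 451 of Cd3e. The follicle chemokine Cxcl13 did not follow these genes, at 0.537 reads per Ms4a1 read in MGNP replicate 4 and 0.422 in MGNP replicate 3 (427 and 1256 reads). MGNP replicate 4 was also rich in muscle RNA, and what part the make-up of the piece had in its values was not tested.

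MGNP replicate 2 had 62 reads of Ms4a1, 10 of Cr2 and 5 of Fcer2a beside 3231 of Jchain and 9855 of Igha. Its 52.1 Jchain and 159 Igha reads per Ms4a1 read were the highest of all 19 libraries. MGN replicate 2 had 34 reads of Ms4a1 and 4 of Pax5 with 467 of Jchain, 983 of Igha and 3748 of Ighm, or 13.7, 28.9 and 110 reads per Ms4a1 read. Both glands thus had antibody transcripts with few transcripts of B cells. Cd3e, a chain of the T cell receptor complex, had 87 reads in MGN replicate 2, or 2.56 per Ms4a1 read, the highest ratio of the series, and 36 in MGNP replicate 2.

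MGN replicate 1 is the MGN gland with Cre and without the p53 allele. It ranked between 1 and 4 of 19 libraries for each member, near MGN replicate 4 at 2 to 3. MGN replicate 3 ranked 5 to 9 and MGN replicate 2 ranked 10 to 14. With 1 such gland the genotypes within MGN cannot be compared.

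Among tumors, TN replicate 3 had 164 reads of Ms4a1, 121 of Cd79b, 58 of Cd79a, 48 of Pax5 and 1145 of Jchain, but 5 of Cr2 and 3 of Fcer2a. It had 7662 reads of Ighm against 43 of Igha, while Ighd had 5 and Ccl21a 3. Fibroblast genes summed to 267500 in this tumor and to 26630 to 55460 in the other 7, and macrophage genes to 35790 against 13670 to 29460. It also had the highest tumor sums of skeletal muscle genes (22610 against 85.2 to 4872), white adipocyte genes (9156 against 1594 to 6810) and lymphatic endothelial genes (1012 against 271 to 624). TNP replicate 2 had 51 reads of Ms4a1, 55 of Cd79b, 38 of Cd79a and 11 of Pax5 with 126 of Cr2, 24 of Fcer2a, 44 of Ighd and 51 of Ccl21a. Its 2.47 Cr2 reads per Ms4a1 read were above those of every gland. The 2 tumors with most B cell RNA thus differed in Cr2, Fcer2a, Ighd and Ccl21a. Cxcl13 had 70 reads in TN replicate 3 and 40 in TNP replicate 2, or 0.427 and 0.784 per Ms4a1 read. TNP replicate 2, which shares a number in its library name with replicate 1, had far more of each member than replicate 1, for example 51 against 6 reads of Ms4a1.

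Genes with the most similar pattern were sought among 18572 genes with a mean of at least 10, by Pearson's r with the mean of the members' centred log2 values over 19 libraries. Among the 10 highest, as a description, were Spib (0.982), Fcrla (0.981), H2-Ob (0.979), Btla (0.979), Cxcr5 (0.978), Iglv3 (0.971), Il9r (0.967), Ikzf3 (0.966) and Gm4759 (0.966), against a 99th percentile of 0.889 and a median of 0.071. Points share the step between glands and tumors, so the group means were also subtracted. Among the 10 highest were then Fcrla (0.981), Cxcr5 (0.979), Spib (0.964), Pcdh15 (0.955), H2-Ob (0.949), Fcmr (0.947), Btla (0.938), Il9r (0.936) and Fcrl1 (0.934), against a 99th percentile of 0.75. The members themselves had 0.945 to 0.980 with the group means subtracted, Fcer2a (0.853) and Jchain (0.805) excepted. Each member is part of the mean it was set against, so these values are high in part by construction.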

How the data were processed

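Values were the DESeq2-normalized counts that the authors deposited, a signal table of 46078 genes with 1 column per library, and 0 columns belonged to other series. The authors read 75-bp pairs and aligned them to GRCm38 with TopHat2 (2.1.1 per the submitters' processing notes) and Bowtie2. The counter, its annotation and its use of strand are not given in the sources used here, and the labels (total RNA) and methods (mRNA) name different kits. Each library's values were whole multiples of a step, so reads were recovered (100% whole at a tolerance of 0.05). GENCODE vM21 matched 97.97% of identifiers. Depth was 20899152 to 62645459 reads on genes per library. 3 reads were taken as the floor.

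Groups came from the sample labels. Log2(normalized count + 1) was fitted with limma 3.58.1 (R 4.3.3, eBayes with a trend) over genes with at least 10 normalized counts in as many samples as the smaller group had, with Benjamini-Hochberg adjustment over all genes. Genes were called at an adjusted p under 0.05 and at least 2-fold. The study gives the samples as biological replicates, but no source used here ties each to an animal, so p-values measure the spread between these samples, which may be partly technical. Replicate numbers did not pair the samples: in no comparison did every same-numbered pair correlate above 0.1 in its deviations. Alternatives were pseudocounts of 0.5 and 5, no filter, TMM scaling, edgeR 4.0.16 and DESeq2 1.42.0 on recovered reads, no fold threshold, all 5 groups in one fit, a replicate block, each sample left out, TNP replicates 1 and 2 averaged and, added later, leaving out glands with over 2% muscle reads and, for pooled ratios, the tumor with the most member reads. The scripts were tested on simulated data. The members and gene lists were chosen with earlier results of these data known. Named genes were all members, up to 4 of the highest mean level per B lineage list (3 per other list), genes called where at most 5 of a list were, and the 10 most similar genes, of which some are not reported here. Chst4, Fut7, Ighd and Cd3e were chosen after their values were seen.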

Additional observations from a re-analysis of the deposited data

Results flagged for a closer look

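In 28 combinations of a member with a group of 4 libraries, the distance of the highest or lowest library to its nearest neighbour was set against the range of the group, both on the log2(normalized count + 1) scale, by Dixon's test at the 95% level, and chance alone marks about 1 in 20. In 3 of them a library stood apart. Ms4a1 in TN replicate 3 had a normalized count of 165.6, with a gap of 0.874 of the log2 range. Cd79b in the same tumor was 122.2 (0.959 of the range). Cd79b in TNP replicate 2 was 67.09 (0.84 of the range).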

How the results depend on the processing

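Of the counts of members called, those for TN against MGN, TNP against MGNP, MGNP against MGN, TNP against TN and the interaction stayed within 1.5 times under every alternative that kept all samples, and the count for MGN against MGWT stayed at 0. For MGNP against MGWT the count of 1 became 3 with DESeq2, 0 with all 5 groups in one fit, 0 with the replicate block and 6 without the 2 muscle-rich glands. The cause was not tested. The replicate block took the call from Jchain there (adjusted p = 0.0556) and from Cr2 in TNP against MGNP (adjusted p = 0.0891), and changed no other count. Same numbers mark no shared animal, and samples correlated best with their own number in 2 of 4 pairs of TN and MGN, 1 of 4 of MGNP and MGN and 0 in the other comparisons. With single samples omitted, the members called were 0 to 3 in MGN against MGWT, 0 to 4 in MGNP against MGWT, 2 to 7 in TN against MGN and 5 to 7 in TNP against MGNP. Differences that changed sign all belonged to results that had not been called. In MGN against MGWT, Ms4a1 was at -0.27 and Cr2 at -0.69 with the replicate block, and Cd79a at 0.55 with edgeR and 0.57 with DESeq2; leaving out samples gave ranges of -0.27 to 1.56 for Ms4a1, -1.26 to 0.68 for Cd79a, -0.93 to 2.07 for Cr2 and -2.34 to 0.074 for Pax5. In MGNP against MGWT, edgeR and DESeq2 gave 1.16 and 1.15 for Cr2 and 0.68 and 0.68 for Pax5, and without the muscle-rich glands Cr2 was at 2.16, Fcer2a at 0.61 and Pax5 at 1.52; leaving out samples gave -1.96 to 0.49 for Cr2 and -1.17 to 0.75 for Pax5. In MGNP against MGN, Fcer2a was at 0.29 with edgeR, 0.28 with DESeq2 and 1.60 without the muscle-rich glands, where Cr2 was at 2.08, and leaving out samples gave -0.070 to 2.22 for Ms4a1, -0.019 to 2.20 for Cd79b, -2.87 to 0.41 for Cr2, -1.96 to 0.086 for Fcer2a and -0.47 to 2.24 for Pax5. In TNP against TN, Jchain was at -1.50 with edgeR and -1.49 with DESeq2, and leaving out samples gave -0.59 to 1.45 for Jchain and -0.87 to 0.42 for Ms4a1. In the interaction, Cr2 was at -0.99 and Fcer2a at -1.24 without the muscle-rich glands, and leaving out samples gave -1.44 to 0.70 for Cd79a and -1.55 to 0.48 for Jchain. Low read numbers of the members limit the tumors, in which 4 of 8 libraries had 0 reads of Cr2 and 3 of 8 had 0 of Fcer2a. Depth was 23520971 to 27262440 reads on genes in TN and 20972633 to 23234914 in TNP. In MGN it was 20899152 to 26373331 and in MGNP 21467242 to 26888814.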
